A study of Drosophila melanogaster with 18 samples.

Results

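Long noncoding and antisense RNA genes were taken from the lists of genes bound by the transcription factor Ets21c in the adult Drosophila midgut. A gene was counted where its symbol began with lncRNA:, asRNA: or CR and a digit, or was roX1, roX2 or Hsromega. By this rule 662 of the 7153 genes in the series were noncoding: 542 of 5184 Ets21c-bound genes in intestinal stem cells and enteroblasts (ISCs/EBs) and 447 of 4854 in absorptive enterocytes (ECs). Of the 662 genes, 428 carried the prefix lncRNA:, 206 the prefix asRNA: and 28 a bare CR symbol.

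The study mapped binding by Targeted DamID (TaDa), in which a protein fused to the bacterial methylase Dam marks GATC sites near the DNA that it contacts. The series held 18 samples of midguts from mated females, 3 for each of 6 genotypes: the fusion UAS-LT3-Dam-ets21c-RA, the polymerase fusion UAS-LT3-Dam-PolII, and the unfused control UAS-LT3-Dam, each under esg-Gal4 and under Myo1A-Gal4. Every genotype also carried UAS-GFP and tub-Gal80-TS, a temperature-sensitive Gal4 inhibitor, and the flies spent 72 hours at 29°C before dissection. The esg driver is active in ISCs/EBs and the Myo1A driver in ECs, so whole midguts were pooled without sorting and the driver alone set the cell type. The deposited lists gave 1 height per gene and cell type, the log2 ratio of the Ets21c fusion over Dam alone, with a false discovery rate (FDR). The Ets21c lists rested on 2 of the 3 replicates, and only their pooled values were used, so no height below has a spread between replicates and no difference between heights was tested.

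Long noncoding RNAs are transcripts that encode no long protein. Some act where they are made, by influencing the transcription of a neighbor, and others bind proteins or serve as precursors of small RNAs. Antisense RNAs are transcribed from the strand opposite a coding gene and overlap it. DamID reads double-stranded DNA and carries no strand, so binding at an overlapping pair cannot be assigned to one gene or the other.

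Most listed noncoding genes lay inside or beside coding genes. In the reference annotation (FlyBase release 6.54, dm6), 659 of the 662 genes were found. Of these, 337 overlapped a coding gene on the opposite strand, 56 on the same strand and 20 on both strands, while 246 overlapped none. The label noncoding held for most but not all of them. Of the 28 bare CR symbols, 27 are annotated as pseudogenes and 1, CR42848, was not matched. A pair of lncRNA: symbols are now protein-coding: lncRNA:CR43051, now CG43051, and lncRNA:CR44404, now IBIN.

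Sequences at the starts of 5 noncoding genes are given to set their ETS sites beside their heights. The windows below run from 250 bases before to 50 bases after the annotated start, 5′ to 3′ on the strand of the noncoding gene, in assembly Release 6 (dm6). Capitals mark the ETS core GGAA or its complement TTCC. The first 3 windows belong to noncoding genes among the 4 with the largest heights in ISCs/EBs, the fourth to the gene within the JNK phosphatase gene puc and the last to the gene with the largest height in ECs among those that overlapped no coding gene.

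lncRNA:CR46110: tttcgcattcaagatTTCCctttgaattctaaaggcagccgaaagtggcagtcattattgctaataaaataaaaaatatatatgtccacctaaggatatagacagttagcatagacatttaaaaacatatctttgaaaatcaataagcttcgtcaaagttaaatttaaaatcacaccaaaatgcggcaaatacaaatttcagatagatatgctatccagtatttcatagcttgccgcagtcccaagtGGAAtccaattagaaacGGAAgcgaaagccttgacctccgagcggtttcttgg

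lncRNA:CR45166: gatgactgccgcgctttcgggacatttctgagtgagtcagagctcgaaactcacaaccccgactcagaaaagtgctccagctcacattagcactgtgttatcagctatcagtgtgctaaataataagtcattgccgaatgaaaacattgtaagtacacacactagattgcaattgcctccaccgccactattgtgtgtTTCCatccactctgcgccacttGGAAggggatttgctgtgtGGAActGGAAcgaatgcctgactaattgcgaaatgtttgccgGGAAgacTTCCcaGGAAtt

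lncRNA:CR44148: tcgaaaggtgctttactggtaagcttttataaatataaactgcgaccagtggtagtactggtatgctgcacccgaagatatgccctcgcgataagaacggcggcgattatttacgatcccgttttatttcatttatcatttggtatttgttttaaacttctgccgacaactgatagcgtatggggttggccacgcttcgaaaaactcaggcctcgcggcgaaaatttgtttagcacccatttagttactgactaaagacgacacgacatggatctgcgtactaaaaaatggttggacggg

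lncRNA:CR44331: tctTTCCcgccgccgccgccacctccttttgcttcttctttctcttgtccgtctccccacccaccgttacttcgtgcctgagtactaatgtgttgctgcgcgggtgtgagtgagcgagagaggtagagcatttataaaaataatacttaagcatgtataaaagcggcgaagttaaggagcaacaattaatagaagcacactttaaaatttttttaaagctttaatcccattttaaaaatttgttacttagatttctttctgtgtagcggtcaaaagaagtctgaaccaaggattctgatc

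lncRNA:CR43414: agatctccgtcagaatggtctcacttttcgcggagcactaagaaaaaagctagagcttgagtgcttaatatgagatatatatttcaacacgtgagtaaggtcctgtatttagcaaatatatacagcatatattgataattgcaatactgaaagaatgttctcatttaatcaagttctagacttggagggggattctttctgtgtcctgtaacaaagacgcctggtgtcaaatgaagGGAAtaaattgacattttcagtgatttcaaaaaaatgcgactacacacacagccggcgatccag

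In this order the windows are chr3R:29775002-29775301, chr3L:1324172-1324471, chr2L:7685292-7685591, chr3R:8113954-8114253 and chr2L:20297250-20297549, all on the minus strand. The windows of lncRNA:CR46110, lncRNA:CR45166, lncRNA:CR44148 and lncRNA:CR44331 lay in introns of kay, Myo61F, Myo28B1 and puc, and that of lncRNA:CR43414 lay outside any other gene. The ETS core occurred 3 times at lncRNA:CR46110, 7 times at lncRNA:CR45166, 0 times at lncRNA:CR44148 and once each at lncRNA:CR44331 and lncRNA:CR43414. The heights of these genes in ISCs/EBs were 1.39, 1.10, 1.07, 0.89 and 0.90 in the same order. The longer ETS site CCGGAA was in none of the 5 windows, and the AP-1 site TGANTCA was in 1, that of lncRNA:CR45166. A match in such a window is a description of the letters, since the peaks were assigned to genes over several kilobases.

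The motifs were then counted over all promoter windows. The ETS core GGAA, the longer ETS site CCGGAA, the AP-1 site TGANTCA and the Dam target GATC were each searched on both strands. Every match of the longer ETS site is also a match of the core. The ETS core was in 88.7% of 540 noncoding promoters listed in ISCs/EBs and in 89.5% of 2185 not listed, and in ECs in 88.8% of 445 listed and 89.4% of 2280 not listed. Of all 17796 promoters, 87.8% held it. CCGGAA was in 7.22% of listed and 7.78% of other noncoding promoters in ISCs/EBs, in 7.42% and 7.72% in ECs, and in 7.02% of all promoters. TGANTCA was in 6.85% of listed and 7.14% of other noncoding promoters in ISCs/EBs, in 7.42% and 7.02% in ECs, and in 6.32% of all. The site GATC was in 52.4% of listed noncoding promoters in ISCs/EBs against 45.5% of the others, and in 52.6% against 45.8% in ECs, beside 46.3% of all promoters.

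The heights of the noncoding genes were about those of coding genes. In each list 61.1% of them had the same height and FDR as a coding gene within 10 kb, so these heights are not independent of the coding ones. In ISCs/EBs the 542 noncoding genes had a median height of 0.53 and ran from 0.19 to 1.39, while coding genes had a median of 0.52 and ran from 0.15 to 1.46. In ECs the 447 noncoding genes had a median of 0.52 and ran from 0.24 to 1.11, while coding genes had a median of 0.51 and ran from 0.14 to 1.48. Genes with the prefix lncRNA: had medians of 0.55 in ISCs/EBs and 0.53 in ECs, against 0.50 in each cell type for asRNA: genes. Of the lncRNA: genes, 242 (68.0%) reached a height of 0.5 in ISCs/EBs and 174 (61.3%) in ECs, compared with 58.1% and 52.9% of coding genes. The other kinds lay below coding genes, with asRNA: genes at 51.8% and 50.3% and bare CR symbols at 50.0% in each cell type. All noncoding genes together stood at 62.4% in ISCs/EBs and 57.3% in ECs.

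**Figure D1:**
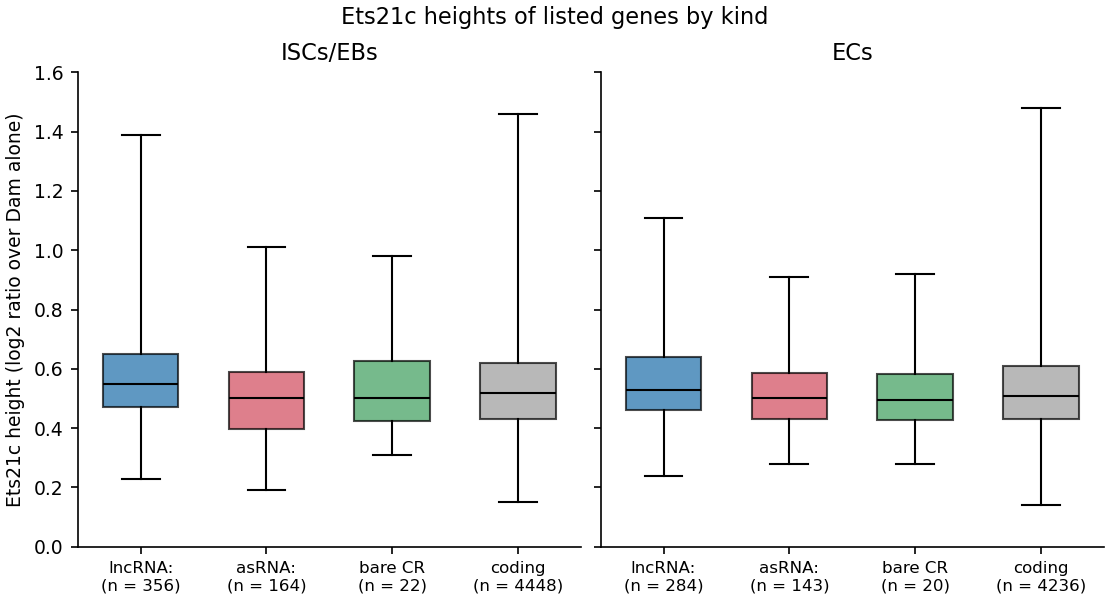
Ets21c height (log2 ratio over Dam alone) of the listed genes in ISCs/EBs (left) and ECs (right), by kind. Boxes span the quartiles with the median as a line and whiskers reach the lowest and highest gene; the 4 medians in each cell type lie between 0.495 and 0.55.

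A smaller share of noncoding than of coding genes was listed, with unequal shares among the 3 kinds. In ISCs/EBs 19.8% of the 2730 noncoding genes in the annotation were listed, beside 31.8% of coding genes and 28.9% of all annotated genes. In ECs the shares were 16.3% of noncoding genes, 30.3% of coding genes and 27.1% of all. Antisense genes were listed about as often as coding genes, at 32.8% in ISCs/EBs and 28.4% in ECs. The lncRNA: genes stood at 18.1% in ISCs/EBs and 14.4% in ECs, and bare CR symbols at 8.21% and 7.5%. These shares went with position. Among genes overlapping a coding gene on the opposite strand only, lncRNA: genes were listed at 32.7% in ISCs/EBs and 25.9% in ECs. There asRNA: genes stood at 32.6% and 29.3%, and bare CR symbols at 21.2% and 18.2%. Of the 1375 lncRNA: genes that overlapped no coding gene, 12.9% were listed in ISCs/EBs and 10.4% in ECs. The annotation is newer than the one the authors used, and 112 of the 2730 noncoding genes have identifiers above the highest one among the listed genes.

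The 3 noncoding genes best known in the fly were in none of the 4 lists. These are roX1 and roX2, RNAs of the complex that raises X-chromosome transcription in males, and Hsromega, an RNA induced by heat shock. The PolII lists also held 0 noncoding genes under the symbol rule, out of 2216 genes in ISCs/EBs and 948 in ECs, where 12.4% and 5.29% of all annotated genes and 15.8% and 6.76% of coding genes were listed. A pair of PolII-bound genes in ISCs/EBs, CG11023 with a PolII height of 1.26 and CG14117 with 1.12, are now annotated as the pseudogenes CR11023 and CR14117, which makes 0.0733% of the noncoding genes of the annotation. PolII signal was averaged by the authors over annotated transcripts. Whether noncoding transcripts entered that step is not stated in the methods or labels, so the 0 says nothing of their transcription.

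The PolII lists were used to check the cell types. All 8 progenitor markers, among them esg, Dl and klu, were PolII-bound in ISCs/EBs, and 0 of 8 in ECs. Of 10 enterocyte markers, 3 were listed in each cell type: mex1, Myo31DF and GATAe in ISCs/EBs, and mex1, GATAe and Jon99Ci in ECs. No enteroendocrine marker of 7 was listed in either cell type. In ISCs/EBs 1 of 4 visceral muscle markers (how), 1 of 3 hemocyte markers (srp) and 1 of 3 neuron markers (elav) were listed. In ECs 0 of these markers were listed. The part of other cells in the Ets21c heights was not tested.

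The largest noncoding height in ISCs/EBs was that of lncRNA:CR46110 (chr3R:29774324-29775051, minus strand), at 1.39, with 0.57 in ECs. This gene starts in an intron of kay and overlaps it on the opposite strand. The fly Fos, an AP-1 subunit that acts downstream of JNK, is encoded by kay. The gene kay had the same heights in both cell types, and was PolII-bound in ISCs/EBs with a PolII height of 1.47 and absent from the EC PolII list. In ECs the phosphatase gene fig, also at kay, shared the height of 0.57, while in ISCs/EBs it had 0.76.

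The JNK pathway supplied a further pair in ECs. lncRNA:CR44331 (chr3R:8112699-8114003, minus strand) lies within puc, the gene of the phosphatase that inactivates JNK, on the opposite strand. It had a height of 0.89 in ISCs/EBs and 1.06 in ECs, the second largest noncoding height in ECs. There puc had the same 1.06, but in ISCs/EBs puc was listed with 0.60, less than the noncoding gene inside it. The methods do not state how several peaks at 1 gene became 1 height, so this order does not rank binding within the pair. The gene puc was PolII-bound in both cell types, with PolII heights of 1.67 in ISCs/EBs and 0.54 in ECs.

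A GATA factor gene held the third pair. lncRNA:CR44133 (chr3R:15986181-15993665, plus strand) overlaps srp, a GATA factor of hemocytes and fat body, on the same strand. It had 1.02 in ISCs/EBs, as did srp, and 0.48 in ECs, where srp had 0.79.

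**Figure D2:**
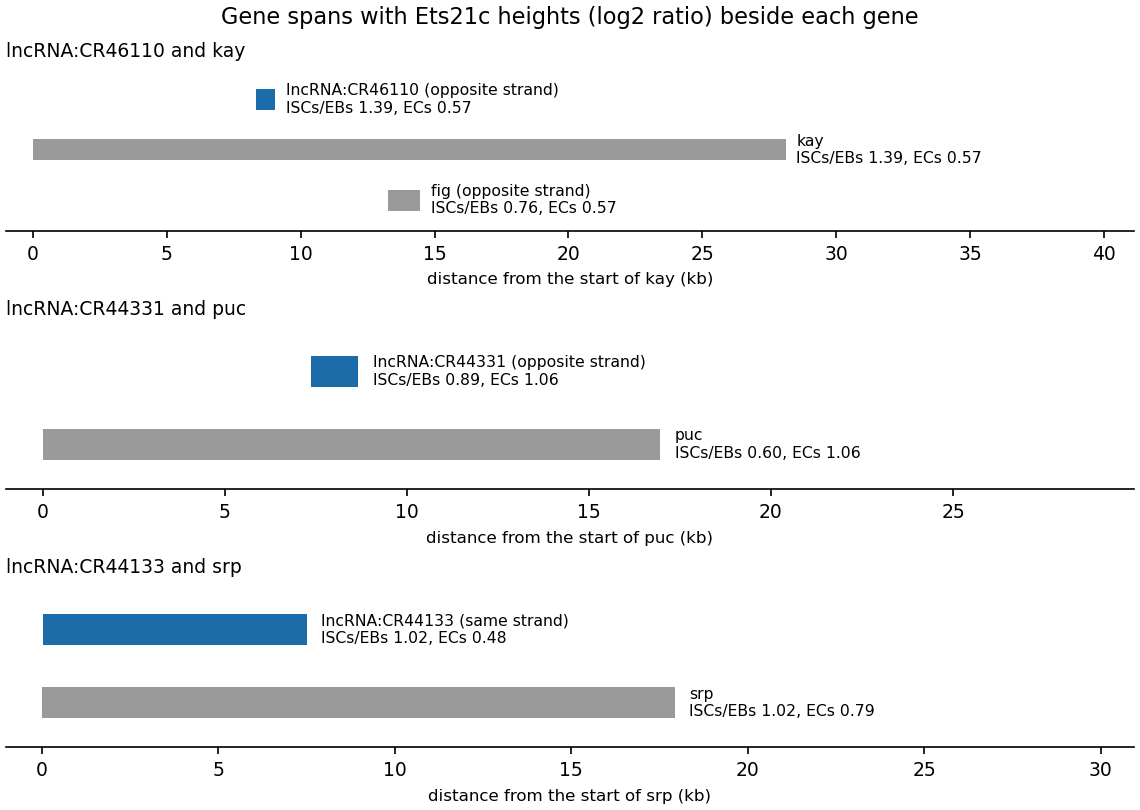
Spans of 3 noncoding genes (blue) and of the coding genes over them (grey), by distance in kb from the start of the coding gene, with the Ets21c height (log2 ratio over Dam alone) of each in ISCs/EBs and ECs. The pair at kay agrees in both cell types, at 1.39 and 0.57. The pair at puc agrees at 1.06 in ECs but not in ISCs/EBs, and the pair at srp at 1.02 in ISCs/EBs but not in ECs.

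Of the next largest heights in ISCs/EBs, 3 belonged to further lncRNA: genes. lncRNA:CR45166 had 1.10 in ISCs/EBs and 0.63 in ECs, with equal values for Myo61F, an unconventional myosin, and CG9184. lncRNA:CR44148 had 1.07 in ISCs/EBs and 0.76 in ECs, equal to Myo28B1, another unconventional myosin, and Slob. lncRNA:CR44214, which overlaps CG15125, had 1.08 in ISCs/EBs and 0.38 in ECs. These 3 genes and lncRNA:CR46110 all lie opposite the coding gene whose values they share.

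The 2 highest asRNA: genes in ISCs/EBs shared values with the coding gene opposite. asRNA:CR45813 had 1.01 in ISCs/EBs and 0.53 in ECs, as did Pcyt1, an enzyme of phosphatidylcholine synthesis. asRNA:CR44911 had 0.98 in ISCs/EBs and 0.74 in ECs, as did bur, the GMP synthetase gene. Just outside the highest 10, lncRNA:CR43973 and the pseudogene CR43972 both had 0.95 in ISCs/EBs and 0.43 in ECs, and both lie opposite the CTP synthase gene CTPsyn, which had these values too.

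Other members of the highest 10 shared values with no coding gene close by. The pseudogene CR33317 had 0.98 in ISCs/EBs and 0.92 in ECs, while sky, the gene on its opposite strand, was in neither Ets21c list although PolII-bound in both cell types, with PolII heights of 1.08 in ISCs/EBs and 0.36 in ECs. lncRNA:CR43847 had 0.98 in ISCs/EBs and 0.71 in ECs, with the nearest coding gene, CG31093, 6120 bp away and unlisted. lncRNA:CR44526 had 0.97 in ISCs/EBs and 0.59 in ECs and lies 13450 bp from hry (hairy), a bHLH repressor gene that had 0.85 in ISCs/EBs and 0.71 in ECs.

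In ECs the largest noncoding height was that of lncRNA:CR44757, at 1.11 against 0.60 in ISCs/EBs. It lies within CG13506 on the same strand, which had the same heights in both cell types and was PolII-bound in ISCs/EBs alone, with a PolII height of 0.93. lncRNA:CR43414 (chr2L:20296643-20297299) had 0.90 in ISCs/EBs and 1.01 in ECs, and the closest coding gene, CG12617 at 839 bp, was in neither list. lncRNA:CR45293 had 0.52 in ISCs/EBs and 0.97 in ECs, and its neighbor Tim17b2, a mitochondrial import gene 152 bp away, showed the other order, with 1.04 in ISCs/EBs and 0.43 in ECs.

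Of the remaining members of the highest 10 in ECs, 3 were higher in ECs than in ISCs/EBs. lncRNA:CR43654, within CG7029, had 0.57 in ISCs/EBs and 0.88 in ECs. lncRNA:CR43287, opposite CHES-1-like, a forkhead factor gene, had 0.68 in ISCs/EBs and 0.85 in ECs. lncRNA:CR44357 had 0.77 in ISCs/EBs and 0.87 in ECs and spans chrX:7166451-7405797, over coding genes that include Atg5, an autophagy gene that shared both values.

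The 327 noncoding genes in both lists differed little between the cell types at the median. They made up 60.3% of the noncoding genes in ISCs/EBs and 73.2% of those in ECs, where coding genes gave 67.1% and 70.5%. The difference, ISCs/EBs minus ECs, had a median of 0.03 and ran from -0.51 to 0.82, beside 0.03 and -0.80 to 0.82 over 2986 coding genes. Heights were larger in ISCs/EBs for 181 noncoding genes (55.4%), larger in ECs for 137 (41.9%) and equal for 9. Among the coding genes 1679 (56.2%) were larger in ISCs/EBs and 1253 in ECs. Across these genes the heights in the cell types had a Pearson r of 0.277 and a Spearman rho of 0.28, against 0.318 and 0.297 for coding genes. Genes that share a peak and a stretch of DNA enter such a correlation together, so the points are not independent.

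Of the noncoding genes, 12 differed by at least 0.4 toward ISCs/EBs and 2 toward ECs, beside 70 and 47 of the 2986 coding genes. The 5 largest values toward ISCs/EBs were those of lncRNA:CR46110 (0.82), lncRNA:CR44214 (0.70), lncRNA:CR44133 (0.54), and CR43972 and lncRNA:CR43973 (0.52 each). Toward ECs the largest were lncRNA:CR44757 (-0.51) and lncRNA:CR45293 (-0.45), before 4 genes at -0.39. Of these, lncRNA:CR45204 had 0.25 in ISCs/EBs and 0.64 in ECs and shared both values with Imp, the gene of an RNA-binding protein. asRNA:CR45623, opposite the corepressor gene Smr, had 0.34 in ISCs/EBs and 0.73 in ECs. lncRNA:CR45906, opposite the chromatin gene Alh, had 0.37 in ISCs/EBs and 0.76 in ECs, and asRNA:CR44019, opposite CG12163, had 0.27 in ISCs/EBs and 0.66 in ECs.

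**Figure D3:**
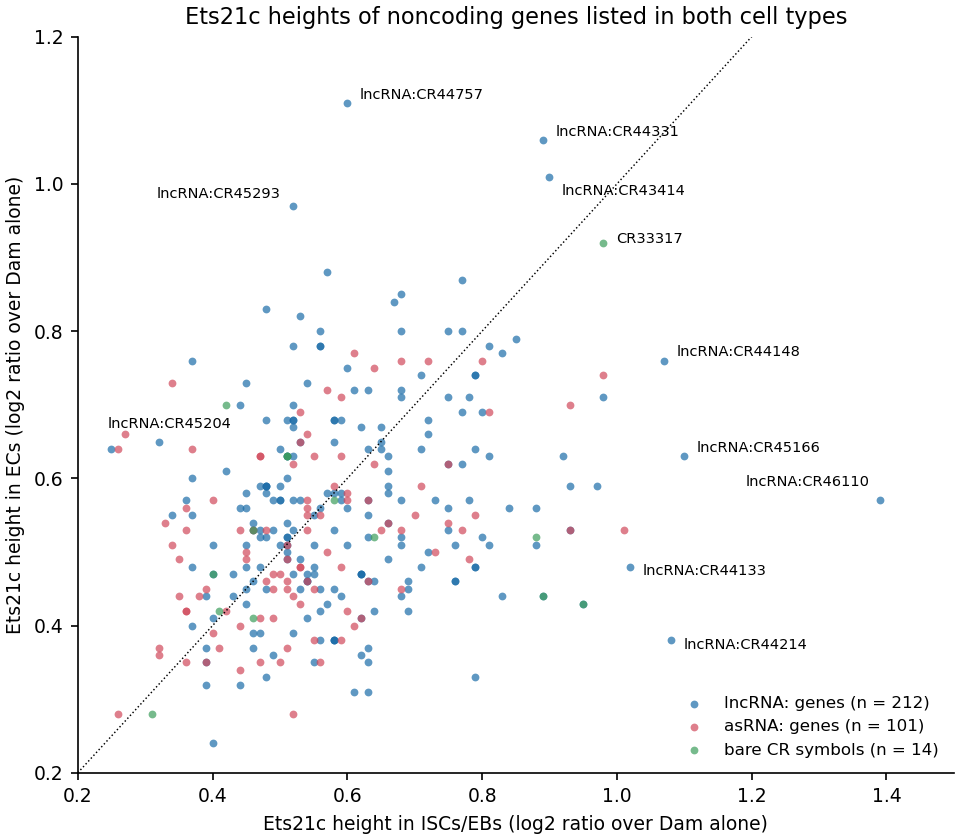
Ets21c heights (log2 ratio over Dam alone) in ISCs/EBs (x axis) and ECs (y axis) of the 327 noncoding genes in both lists, 1 point per gene, with equality as a dotted line. lncRNA:CR46110 lies farthest toward ISCs/EBs, at 1.39 against 0.57, and lncRNA:CR44757 farthest toward ECs, at 0.60 against 1.11.

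Genes listed in 1 cell type alone had lower heights than those in both lists. The 215 listed in ISCs/EBs alone had a median of 0.49, against 0.56 for those in both, and the 120 listed in ECs alone a median of 0.48, against 0.53. The largest in ISCs/EBs alone were lncRNA:CR45274 and asRNA:CR45275 at 0.87, lncRNA:CR46035 at 0.85, lncRNA:CR44345 at 0.82 and lncRNA:CR46194 at 0.81. lncRNA:CR46035 lies opposite osa, a gene of the Brahma chromatin remodeling complex, which shared the 0.85 in ISCs/EBs and had 0.38 in ECs.

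Those in ECs alone were led by asRNA:CR45257 at 0.91, opposite Mcr, a gene of the septate junctions, and lncRNA:CR45025 at 0.88, opposite fz, the receptor gene of Wnt and planar polarity signaling. Both coding genes had the same height in ECs and were absent from the ISC/EB list. They were followed by lncRNA:CR45355 at 0.80, lncRNA:CR44295 at 0.74, opposite oys, and asRNA:CR45611 at 0.73, opposite slgA. An unlisted gene may lie just under the threshold, and its height was not used here.

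The smallest noncoding heights in ISCs/EBs were those of asRNA:CR45715 at 0.19, lncRNA:CR44284 at 0.23, asRNA:CR43824 at 0.24, and lncRNA:CR45204 and asRNA:CR46104 at 0.25. In ECs they were those of lncRNA:CR44854 at 0.24, lncRNA:CR44096 at 0.26, lncRNA:CR44084 at 0.27, and CR42848, asRNA:CR44147 and asRNA:CR45738 at 0.28. The methods state a minimum height of 0.3, and 11 of 542 noncoding genes lay under it in ISCs/EBs and 6 of 447 in ECs. Over all listed genes, 161 of 5184 lay under it in ISCs/EBs and 125 of 4855 entries in ECs.

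Many noncoding genes had a coding neighbor with the very same height and FDR. An equal pair occurred somewhere in the list for 498 noncoding genes (91.9%) in ISCs/EBs and 415 (92.8%) in ECs, but heights have 2 decimals and such ties also arise far apart. Within 10 kb, the span that 1 peak could reach when genes within 5 kb on either side are listed, 331 (61.1%) had an equal coding gene in ISCs/EBs and 273 (61.1%) in ECs. Coding genes had an equal coding gene within this distance in 60.2% of cases in ISCs/EBs and 61.8% in ECs. In ISCs/EBs 234 of the 331 overlapped the coding gene, and in ECs 196 of 273. Of the 327 genes in both lists, 153 had the same close equal coding gene in both cell types.

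Overlap did not always bring equal values. Of 348 noncoding genes listed in ISCs/EBs that overlapped a coding gene, 234 had its values. The height was lower than that of the listed coding gene for 59 and higher for 23. For 30 no overlapped coding gene was listed, and 2 fell in none of these classes. In ECs, of 289 such genes, 196 had equal values, 41 were lower, 29 were higher, 21 overlapped unlisted genes only and 2 fell in no class.

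Members with such a partner had a median height of 0.54 in ISCs/EBs and 0.52 in ECs, and those without one 0.52 in each cell type. All 6 noncoding genes that reached a height of 1 in ISCs/EBs had a close equal coding gene there, and in ECs 2 of 3 did, beside 61.1% of all members in each list. A height of 0.8 was reached in ISCs/EBs by 7.85% of the 331 members with a partner and 6.64% of the 211 without. In ECs the order was the other way, at 2.93% of 273 with a partner and 5.75% of 174 without.

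Groups of 3 noncoding genes with equal values occurred at 2 places. lncRNA:CR44742, lncRNA:CR44743 and lncRNA:CR45730, at the clock gene vri, all had 0.48 in ISCs/EBs and 0.59 in ECs, while vri had 0.70 and 0.65. lncRNA:CR45637, lncRNA:CR45639 and lncRNA:CR45640 all had 0.46 in ISCs/EBs and were absent from the EC list. Counting close noncoding genes of equal values once left 501 separate values in ISCs/EBs and 414 in ECs.

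Signaling and fate genes of the midgut were among the partners. Of a list of 94 such genes, 19 shared values with a close noncoding gene, 13 in ISCs/EBs and 12 in ECs, through 20 noncoding genes in all. These were 18.1% of the 72 such genes listed in ISCs/EBs and 17.9% of the 67 listed in ECs, beside 10.6% and 8.76% of all listed coding genes, a difference that was not tested. The list was chosen with earlier results of these data known. The coding genes beside it were not matched for length or for the number of noncoding genes nearby. Beside kay and puc of the JNK pathway these included Egfr with lncRNA:CR44725 (0.62 in ECs) and InR, the insulin receptor gene, with lncRNA:CR43653 (0.72 in ECs). The receptor genes tkv and ptc shared values in both cell types. tkv, of the BMP pathway, and lncRNA:CR44744 had 0.66 in ISCs/EBs and 0.58 in ECs, and ptc, of the Hedgehog pathway, and lncRNA:CR44281 had 0.59 and 0.58.

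The JAK/STAT pathway was represented by a ligand and an inhibitor. The ligand gene upd2 and lncRNA:CR45607, 1608 bp away, had 0.69 in ISCs/EBs, whereas in ECs upd2 had 0.61 and the noncoding gene 0.46. The inhibitor gene Socs36E and lncRNA:CR44478 had 0.50 in ISCs/EBs and 0.51 in ECs.

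Wnt pathway genes shared values in 1 cell type each. In ISCs/EBs arm, the beta-catenin gene, did so with asRNA:CR45929 (0.66), the inhibitor gene nkd with lncRNA:CR45940 (0.61) and the receptor gene fz3 with lncRNA:CR44966 (0.38). In ECs it was fz with lncRNA:CR45025, as above.

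Of the genes of cell fate and survival, the enteroendocrine factor gene pros and lncRNA:CR46008 had 0.73 in ISCs/EBs, and the ecdysone receptor gene EcR and lncRNA:CR43904 had 0.57. In ECs the Notch pathway gene neur and asRNA:CR31429 had 0.66, and GATAe, the endodermal GATA factor gene, and lncRNA:CR42839 had 0.51. Diap1, which encodes a caspase inhibitor, shared 0.53 in ISCs/EBs with asRNA:CR45889 and lncRNA:CR43951, and 0.48 in ECs with asRNA:CR45889 alone.

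A few members have names of their own, in the lists or in the annotation, and were picked for these after the values had been seen. lncRNA:acal, which dampens JNK signaling in the closing embryonic epidermis, had 0.54 in ISCs/EBs and 0.46 in ECs, and its neighbor lola shared the EC value. lncRNA:cherub, known from neural stem cell tumors, had 0.63 in ISCs/EBs and 0.64 in ECs. lncRNA:let7C, the precursor of the let-7 microRNA cluster, had 0.54 in ISCs/EBs and was absent from the EC list. asRNA:ASTR had 0.36 in ISCs/EBs and 0.42 in ECs, and asRNA:Eig63F-2 had 0.61 and 0.77. lncRNA:CR43653, at InR, is now lncRNA:Irar, and had 0.61 in ISCs/EBs and 0.72 in ECs. lncRNA:CR45923, now lncRNA:dntRL, was absent from the ISC/EB list and had 0.36 in ECs.

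A further gene was singled out for its place, also after its values had been seen. lncRNA:CR15061, 7784 bp from the cytokine gene upd3, had 0.54 in ISCs/EBs and 0.73 in ECs, while upd3 itself had 0.77 and 0.48.

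Whether a noncoding gene was listed went with the listing of its coding neighbor. Of 530 annotated noncoding genes that overlapped a coding gene listed in ISCs/EBs, 60.0% were listed too, against 5.07% of 592 whose overlapped coding genes were not. In ECs the shares were 54.0% of 494 and 3.5% of 628. Where no coding gene was overlapped, 32.3% were listed in ISCs/EBs if the nearest coding gene was and 5.98% if it was not, and in ECs 29.5% and 4.16%. For antisense genes alone, the shares were 68.4% with a listed coding gene and 6.9% without one in ISCs/EBs, and 64.0% and 4.97% in ECs. The authors assigned a peak to genes within 5 kb that had no other gene between, so both genes of a pair can be listed from 1 peak.

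**Figure D4:**
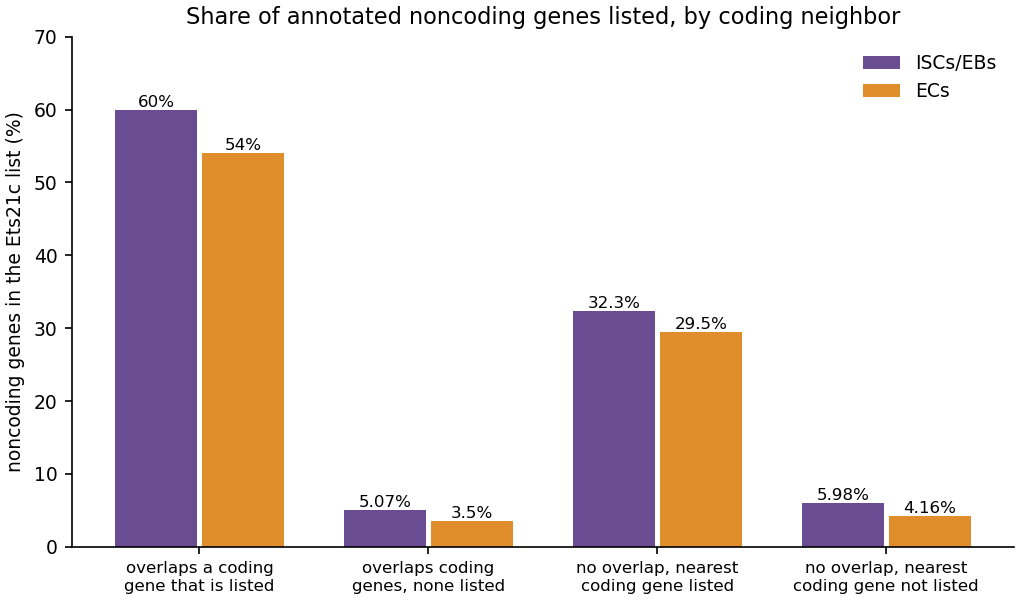
Share (%) of annotated noncoding genes in the Ets21c list of ISCs/EBs (purple) and ECs (orange), by whether the coding gene they overlap, or the nearest one, is in the same list. With an overlapped gene listed the shares are 60.0% in ISCs/EBs and 54.0% in ECs, and with none listed 5.07% and 3.5%.

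Noncoding genes far from coding genes were listed least. With no coding gene within 5 kb, 37 of 481 (7.69%) were listed in ISCs/EBs and 25 (5.2%) in ECs. The distance classes include the 62 noncoding genes of the Y chromosome, which the females sampled do not carry. With one within 5 kb but no overlap, the shares were 13.8% in ISCs/EBs and 11.7% in ECs, and with an overlap 31.0% and 25.8%. The 37 and 25 isolated genes had median heights of 0.56 in ISCs/EBs and 0.53 in ECs, no lower than the 0.525 and 0.52 of the overlapping ones. Starts also lay nearer to a coding start among listed genes, at a median distance of 2170 bp, against 3230 bp for unlisted ones, in ISCs/EBs, and of 2090 bp against 3220 bp in ECs.

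The number of Dam target sites differed as well. Noncoding genes are short, and their spans with 5 kb on either side held a median of 30 GATC sites, against 47 for coding genes. Listed noncoding genes had a median of 37.5 in ISCs/EBs and 36 in ECs, against 28 for unlisted ones in each cell type. Within classes of equal GATC number, noncoding genes were listed about as often as coding genes up to 41 sites. In ISCs/EBs 6.55% of noncoding and 5.77% of coding genes with 0 to 20 sites were listed, 17.4% and 15.7% with 21 to 30, and 25.3% and 24.0% with 31 to 41. With 42 to 55 sites the shares were 28.3% of noncoding and 32.8% of coding genes, and with 56 to 100 sites 36.4% of 162 noncoding genes and 42.4% of coding genes. In ECs the shares were 6.4% and 5.36%, 14.7% and 15.9%, and 20.9% and 23.7% in the lowest 3 classes, then 22.1% against 31.1%, and 29.0% against 39.5%. GATC number, gene length and distance to a coding gene move together here, and their separate parts were not tested.

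**Figure D5:**
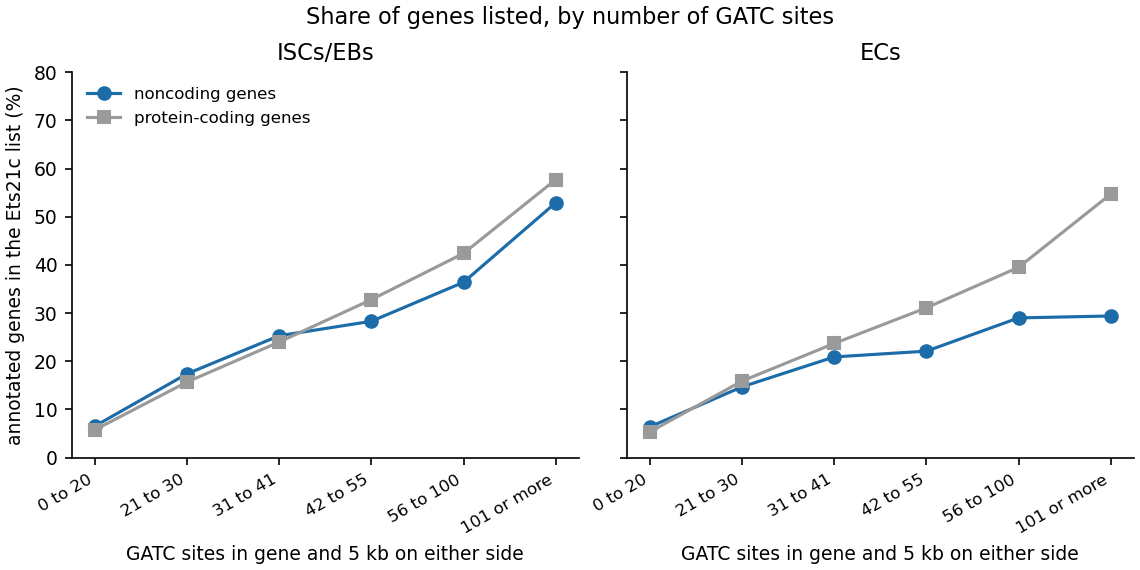
Share (%) of annotated noncoding (blue circles) and protein-coding genes (grey squares) in the Ets21c list, by number of GATC sites in the gene and 5 kb on either side, in ISCs/EBs (left) and ECs (right). Up to 41 sites the lines lie within 3 percentage points of each other; the class of 101 or more holds only 17 noncoding genes.

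The chromosome arms differed in their shares. On the X chromosome 26.3% of 365 noncoding genes were listed in ISCs/EBs and 19.7% in ECs, on 2R 23.7% and 19.5%, on 3R 20.0% and 17.8%, on 3L 18.8% and 16.3%, and on 2L 16.6% and 13.1%. Coding genes had the same order of arms in ISCs/EBs, at 36.4% on X, 34.5% on 2R, 32.0% on 3R, 29.3% on 3L and 28.3% on 2L. In ECs their shares were 31.6% on X, 31.2% on 2R, 30.6% on 3R, 31.8% on 3L and 26.8% on 2L. Chromosome 4 had 4 of its 31 noncoding genes (12.9%) listed in ISCs/EBs and 2 (6.45%) in ECs. Its coding genes stood at 18.8% and 22.5%. Of 62 noncoding genes on the Y chromosome, which the females sampled do not carry, 0 were listed. They were kept in the shares over all annotated noncoding genes given above.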

How the data were processed

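All samples were midguts of mated females. The table used here, deposited by the authors, lists genes with log2 ratios of the fusion over Dam alone, made from ratios per GATC fragment by calling Ets21c peaks and averaging PolII over transcripts. Beside each log2 ratio the authors gave an FDR (q-value). The methods name an earlier dm6 annotation release and a minimum Ets21c height of 0.3, the heading of the deposited table states 0.1, and the submitters' processing notes name dm3. Replicate 2 of the Ets21c fusion was left out by the authors as noisy in each cell type. The Ets21c and PolII ratios share the Dam-alone samples. No source used here gives the sequencing depth, so counting error is unknown.

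Genes were matched by identifier, failing that by symbol, to 17873 genes of Ensembl release 115. Sequences were read from RefSeq's Release 6 assembly. Equal pairs needed identical height and FDR. The search was run on simulated lists in which only planted pairs tied, so it could not show how often unrelated neighbors tie. The gene listed with 2 heights in ECs was coding and counted once. Named were the 10 largest and 5 smallest heights, the 5 largest differences either way, the 5 largest in 1 cell type alone, groups of 3 equal genes, and partners of signaling genes. Members and lists were chosen with earlier results of these data known. Python 3.11.15, pandas 2.3.3, numpy 2.4.6 and matplotlib 3.10.9 were used.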

Additional observations from a re-analysis of the deposited data

How the results depend on the processing

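Of 25 alternatives, 17 left a result within 1.5 times its value and 8 moved it. A minimum height of 0.5 left 338 noncoding genes in ISCs/EBs, 256 in ECs and 157 in both lists, and an FDR of at most 0.001 left 206 in both, since each selects fewer genes. Restricting equal coding genes to the nearest 5 genes on either side gave 328 in ISCs/EBs and 267 in ECs, and to 10 kb, an alternative chosen after seeing the data, 331 and 273. The median difference stayed at 0.03 under all 3 of its alternatives. No paired analysis was possible because the table used here holds 1 height per gene and cell type, pooled over replicates. For the same reason no replicate was left out. Coordinates of peaks were not used here, so equal values stand in for a shared peak. Precision is limited by the unknown depth.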
